A study of Homo sapiens with 3 samples.

Results

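The 10 genes described here are the YAP/TEAD transcription factors and their classic targets, chosen by name with earlier results of these data known. They are the coactivators *YAP1* and *WWTR1* (which encodes TAZ), the DNA-binding factors *TEAD1* and *TEAD4*, and the targets *CTGF*, *CYR61*, *ANKRD1*, *AMOTL2*, *LATS2* and *AXL*. All 10 were found among the 23131 gene symbols of the deposited table, *CTGF* and *CYR61* under these older names for *CCN2* and *CCN1*. They were measured by RNA-seq in HCT-116, a colon carcinoma cell line labelled as APC wild-type with CTNNB1ΔSer45, a β-catenin that lacks a serine needed for its degradation and so keeps canonical WNT signaling active in every library, controls included. The series holds 1 library of cells that received pooled anti-*APC* siRNA, 1 of cells that received pooled scrambled siRNA and 1 of control cells, which the sample labels title as untransfected and describe as mock-treated with transfection reagent only. Cells were transfected 2 times on consecutive days and harvested 48 hours after the second transfection. The table holds anti-*APC* and untransfected values. Scrambled siRNA was not analysed here, and so an effect of siRNA delivery and one of *APC* silencing cannot be told apart. HCT-116 is a single line, and none of the conditions has a replicate, so no difference below has a test or a replicate error.

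YAP and TAZ are the coactivators on which the Hippo kinase cascade acts. When the kinases LATS1 and LATS2 phosphorylate them they are held in the cytoplasm or degraded, and when they escape phosphorylation they enter the nucleus and bind TEAD factors, which supply the contact with DNA. Several of the best known targets feed back on the pathway: LATS2 and AMOTL2 restrain YAP, while CTGF and CYR61 are secreted matricellular proteins. In the intestinal epithelium YAP is known for its part in regeneration and in tumors with active WNT signaling, and the β-catenin destruction complex, of which APC is a scaffold, has been linked to the retention of YAP and TAZ in the cytoplasm.

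TEAD factors read the letters GGAATG, and the promoter windows of the 10 genes that hold this motif are shown here. Sequences come from RefSeq on GRCh38.p14 and hold the 250 bases before an annotated transcript start, 5′ to 3′ on the gene's strand, with each match to GGAATG or its reverse complement CATTCC in capitals. Windows were given for 7 of the 10 genes, *YAP1*, *WWTR1*, *CTGF*, *ANKRD1*, *AMOTL2*, *LATS2* and *AXL*, in 10 windows in all. None was given for *CYR61*, *TEAD1* and *TEAD4*, so their promoters were not searched. The *CTGF* window (chr6:131951373-131951622, minus strand) holds 3 matches and the *ANKRD1* window (chr10:90921088-90921337, minus strand) holds 2. The windows of *AMOTL2* (chr3:134374448-134374697, minus strand, the second of its 2 starts), *YAP1* (chr11:102110197-102110446, plus strand) and *AXL* (chr19:41226505-41226754, plus strand, the second of its 2 starts) hold 1 each.
CTGF: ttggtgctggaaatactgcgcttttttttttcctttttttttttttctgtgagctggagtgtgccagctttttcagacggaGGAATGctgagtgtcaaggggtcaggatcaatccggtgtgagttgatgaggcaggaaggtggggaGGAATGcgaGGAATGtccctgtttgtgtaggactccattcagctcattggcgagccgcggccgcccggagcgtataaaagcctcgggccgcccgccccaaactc
ANKRD1: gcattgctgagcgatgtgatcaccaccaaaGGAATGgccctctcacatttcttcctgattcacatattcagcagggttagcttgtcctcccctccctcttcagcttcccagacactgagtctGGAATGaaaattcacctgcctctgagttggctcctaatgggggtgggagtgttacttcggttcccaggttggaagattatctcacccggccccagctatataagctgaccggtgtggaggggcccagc
AMOTL2: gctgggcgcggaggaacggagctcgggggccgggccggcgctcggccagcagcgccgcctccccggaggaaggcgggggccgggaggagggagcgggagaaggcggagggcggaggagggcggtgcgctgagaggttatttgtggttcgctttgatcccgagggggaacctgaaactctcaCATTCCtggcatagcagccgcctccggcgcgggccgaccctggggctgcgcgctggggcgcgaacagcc
YAP1: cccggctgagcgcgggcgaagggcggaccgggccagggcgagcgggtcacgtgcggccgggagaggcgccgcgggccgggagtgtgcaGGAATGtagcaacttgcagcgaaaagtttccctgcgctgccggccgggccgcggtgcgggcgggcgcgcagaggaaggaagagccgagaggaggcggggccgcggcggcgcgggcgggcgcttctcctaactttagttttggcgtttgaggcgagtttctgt
AXL: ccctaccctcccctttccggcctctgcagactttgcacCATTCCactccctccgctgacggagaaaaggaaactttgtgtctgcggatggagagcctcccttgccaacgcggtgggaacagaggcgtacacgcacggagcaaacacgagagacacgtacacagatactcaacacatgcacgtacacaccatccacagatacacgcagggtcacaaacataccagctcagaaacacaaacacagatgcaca

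Of all 35116 promoter windows of this length, 11.9% hold at least 1 match on either strand, 0.940% hold at least 2 and 0.0826% hold at least 3. Among the windows of the genes described here 5 of 10 held a match, 1 window for each of 5 genes. The matches in *CTGF* begin 169, 104 and 95 bases before the start, and all 3 read GGAATG on the strand of the gene. In *ANKRD1* they begin 220 and 128 bases before the start, also on the strand of the gene, and in *YAP1* the match begins 162 bases before it. Those of *AMOTL2* (69 bases before the start) and *AXL* (212 bases) read CATTCC. No match was found in the windows of *WWTR1* and *LATS2* or in the other windows of *AMOTL2* and *AXL*. The AP-1 motif TGAGTCA, searched on both strands, was found in none of the 10 windows and is present in 4.20% of all windows. The TCF/LEF motif ATCAAAG, also searched on both strands, is present in 2.26% of all windows and was found once, in the *AMOTL2* window with the TEAD match, 101 bases before the start and not overlapping it. ATCAAAG is a narrower form of WWCAAAG (W is A or T), the TCF7L2 motif given in the paper. Its other forms were not searched, and both *WWTR1* windows hold one. These matches describe letters in a window and say nothing of which factor is bound there.

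**Figure D1:**
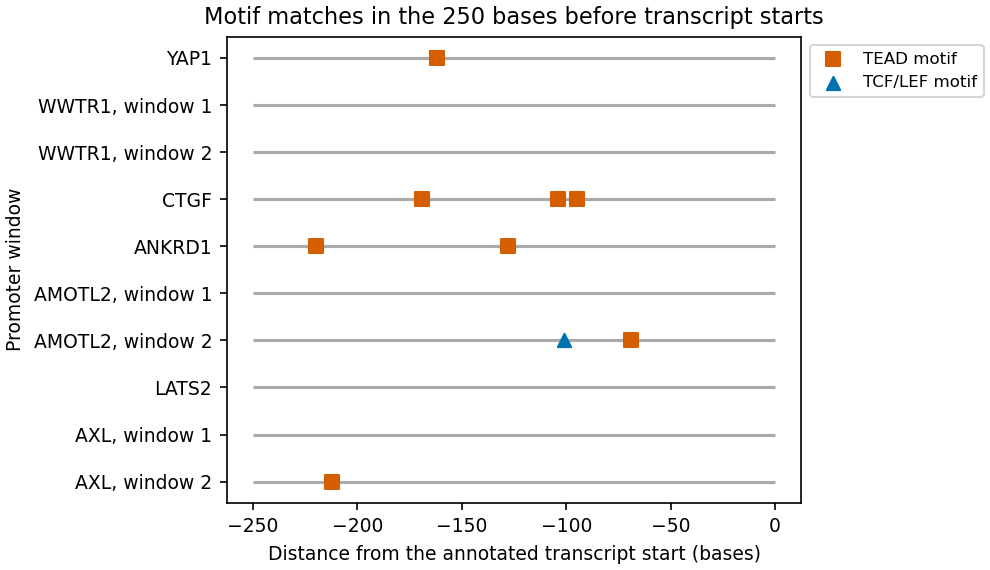
Motif matches in the 10 promoter windows of 7 genes, with the distance from the annotated transcript start in bases on the horizontal axis and 1 grey line per window. Squares are TEAD matches, 3 of them in *CTGF* and 2 in *ANKRD1*, and the triangle is the single match to the TCF/LEF form ATCAAAG, in the second *AMOTL2* window.

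Levels are given as FPKM, a read number divided by transcript length and by the size of the library, so that genes of different length can be compared. The file gives no read counts, but the lowest values fall on steps. Among 1659 rows with a mean below 0.1 FPKM, 327 (19.7%) share 1 ratio, a log2 of 0.13 within 0.01, as rows with equal numbers of reads in both libraries would. With annotated transcript lengths the steps place the depth near 22900000 reads for the anti-*APC* library (quartiles over 160 rows 12100000 and 24100000) and near 25000000 for the untransfected library (quartiles 13200000 and 26400000). Counting intervals below are exact 95% intervals on read numbers estimated from these depths. They cover counting error only. A gene was compared where both libraries were above 0 and their mean was at least 1 FPKM, which held for 12063 rows and for 9 of the 10 genes, the exception being *ANKRD1*, and a difference of at least 1.5-fold (0.58 on the log2 scale) was counted. The targeted gene *APC* stood at 3.43 FPKM in the anti-*APC* library and 9.15 FPKM in the untransfected library, 0.375 of the untransfected level. Of 7 epithelial markers fixed for the check of the cell type, 6 were compared and each of the 6 had less transcript in the anti-*APC* library (median log2 ratio -0.35). They ranged from *KRT8* (588 FPKM untransfected, 478 FPKM anti-*APC*) down to *CDX2* (7.33 and 6.77 FPKM), and the E-cadherin gene *CDH1* went from 19.0 to 12.1 FPKM. The villin gene *VIL1* was listed at 0 in the untransfected library and at 0.0313 FPKM in the other. Of 15 fibroblast, endothelial and leukocyte markers 13 lay below 1 FPKM, the others being *COL1A1* (2.85 FPKM untransfected, 3.08 FPKM anti-*APC*) and *CD68* (8.91 and 5.01 FPKM). Summed FPKM went from 1649 to 1294 for the epithelial list, from 2.88 to 3.13 for the fibroblast list, from 0.128 to 0.102 for the endothelial list and from 8.99 to 5.16 for the leukocyte list, in which the pan-leukocyte marker *PTPRC* had at most 0.0148 FPKM. The part of these shifts in the results below was not tested.

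Of the 10 genes, 8 were higher in the anti-*APC* library than in the untransfected library and 2, *WWTR1* and *AXL*, were lower. Across all rows compared 41.4% were higher, or 41.9% without the minimum on the mean. The secreted target *CYR61* was 2.05-fold higher and *LATS2* was 1.51-fold higher, while the receptor tyrosine kinase gene *AXL* was at 0.555 of its untransfected level. These were the 2 increases and the 1 decrease past 1.5-fold among the 9 genes compared, where 2.56% of all rows compared were higher and 6.61% lower by that measure. *AMOTL2* (1.46-fold) and *TEAD1* (1.43-fold) lay just short of it. Without the minimum on the mean *ANKRD1* joined the increases, which made 3 of 10, beside 6.65% of 16289 rows higher and 12.8% lower. After the median of rows of like level was subtracted, the calls over all rows compared went from 309 higher and 797 lower to 380 and 564, with *CYR61* and *LATS2* still the increases and *AXL* the decrease among the 9 genes. In bulk RNA, fewer cells that express a gene and less transcript per cell cannot be told apart. The median log2 ratio of the 9 genes was 0.40, and over all 10 genes it was 0.46, beside -0.05 over all rows compared. The genes were chosen with earlier results of these data known, so the counts and medians are descriptions.

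**Figure D2:**
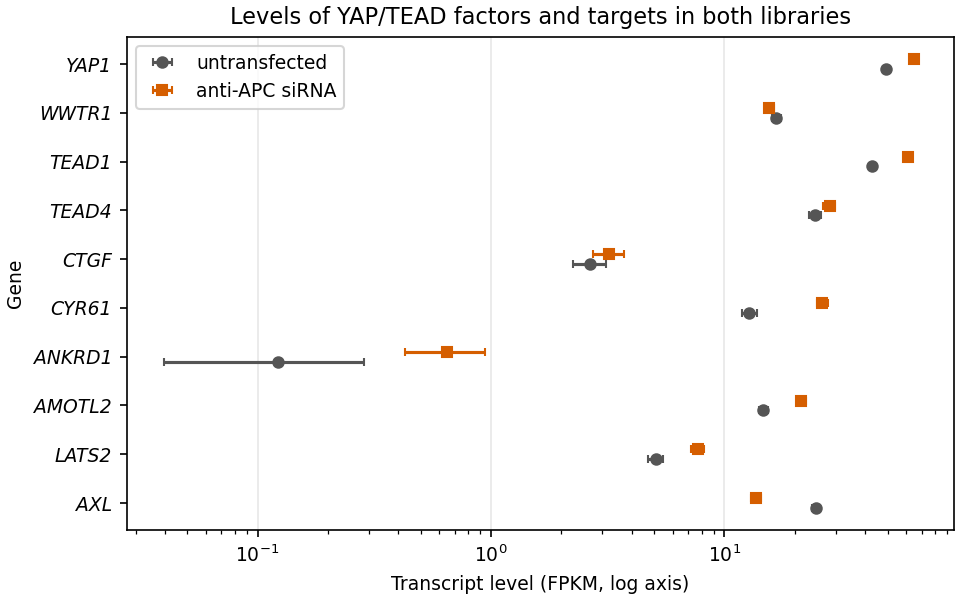
Level of each gene (FPKM, log axis) in the untransfected library (grey circles) and the anti-*APC* library (orange squares), 1 library each. Bars are exact 95% counting intervals from estimated read numbers. *CYR61* and *ANKRD1* are furthest to the right of their untransfected values, and *AXL* is furthest to the left.

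*YAP1*, the coactivator on which LATS kinases act, lies on chromosome 11 of GRCh37 from 101981178 to 102104155 on the plus strand. It had 49.1 FPKM in the untransfected library and 64.9 FPKM in the anti-*APC* library. This 1.32-fold difference is a log2 ratio of 0.40 with a counting interval of 0.36 to 0.45, and 95.2% of the rows compared had a lower ratio. Its paralog *WWTR1* (chromosome 3, 149235022 to 149454501, minus strand) had 16.7 FPKM untransfected and 15.6 FPKM with anti-*APC* siRNA. Its log2 ratio of -0.10 has a counting interval of -0.19 to -0.01 and lay within the middle of all rows, 43.1% of which were lower. *YAP1* was thus the more abundant coactivator transcript, at 2.94 times the *WWTR1* level in the untransfected library and 4.16 times in the anti-*APC* library. The antisense gene *WWTR1-AS1*, whose exons overlap *WWTR1*, had 0.0642 and 0.0404 FPKM in the same order.

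*TEAD1* and *TEAD4* encode members of the TEA domain family that bring YAP and TAZ to DNA. *TEAD1* (chromosome 11, 12695968 to 12966284, plus strand) had 42.8 FPKM untransfected and 61.2 FPKM with anti-*APC* siRNA, a log2 ratio of 0.52 (counting interval 0.48 to 0.55) that exceeded 96.9% of the rows compared. *TEAD4* (chromosome 12, 3068496 to 3149842, plus strand) had 24.5 and 28.2 FPKM, a log2 ratio of 0.20 (0.08 to 0.33). Both were higher in this pair of libraries, and the counting intervals of their ratios did not overlap. The paralog *TEAD3* went the other way, from 8.93 to 6.52 FPKM, a log2 ratio of -0.45 (-0.63 to -0.28). *TEAD2* is listed at 0 in both libraries with a status of FAIL, which all 269 rows with that status share, so nothing can be said of its level. Of the summed FPKM of *TEAD1*, *TEAD3* and *TEAD4*, which was 76.3 without and 96.0 with anti-*APC* siRNA, *TEAD1* made up 56.2% and 63.8%, *TEAD4* 32.1% and 29.4%, and *TEAD3* 11.7% and 6.80%.

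The secreted targets *CTGF* and *CYR61* are the most used readouts of YAP activity, and their ratios between the 2 libraries differed in size. *CYR61* (chromosome 1, 86046444 to 86050272, plus strand) had 12.8 FPKM untransfected and 26.2 FPKM with anti-*APC* siRNA. Its log2 ratio of 1.04 (counting interval 0.91 to 1.17) was above that of 99.1% of the rows compared. *CTGF* (chromosome 6, 132269316 to 132272512, minus strand), whose promoter holds 3 TEAD matches, had only 2.66 and 3.21 FPKM. With about 155 and 171 reads its log2 ratio of 0.27 has a counting interval of -0.05 to 0.60, so a difference was not detectable at this depth. *CYR61* transcript was 4.81 times as abundant as *CTGF* in untransfected cells and 8.19 times with anti-*APC* siRNA.

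*ANKRD1* (chromosome 10, 92671853 to 92680844, minus strand), an ankyrin repeat protein first known from heart muscle and a sensitive YAP target, was the least abundant of the genes. It had 0.123 FPKM in the untransfected library and 0.649 FPKM in the anti-*APC* library, or about 5 and 27 reads. The log2 ratio of 2.40 has a counting interval of 1.17 to 4.30, and with 1 FPKM added to both libraries it was 0.55. Ratios spread widely at such levels: among 2567 rows with a mean of 0.1 to 1 FPKM, the 5th and 95th percentiles were -1.52 and 1.16, against -0.80 and 0.45 at 1 to 10 FPKM and -0.48 and 0.34 at 10 to 100 FPKM. *ANKRD1* lies above the 95th percentile of its own range of levels. So do *LATS2* at 1 to 10 FPKM and *YAP1*, *TEAD1*, *CYR61* and *AMOTL2* at 10 to 100 FPKM, while *AXL* lies below the 5th percentile, and *WWTR1*, *TEAD4* and *CTGF* lie inside theirs. Because 10% of the rows in each range lie outside these percentiles by construction, this places the genes and is not a test.

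**Figure D3:**
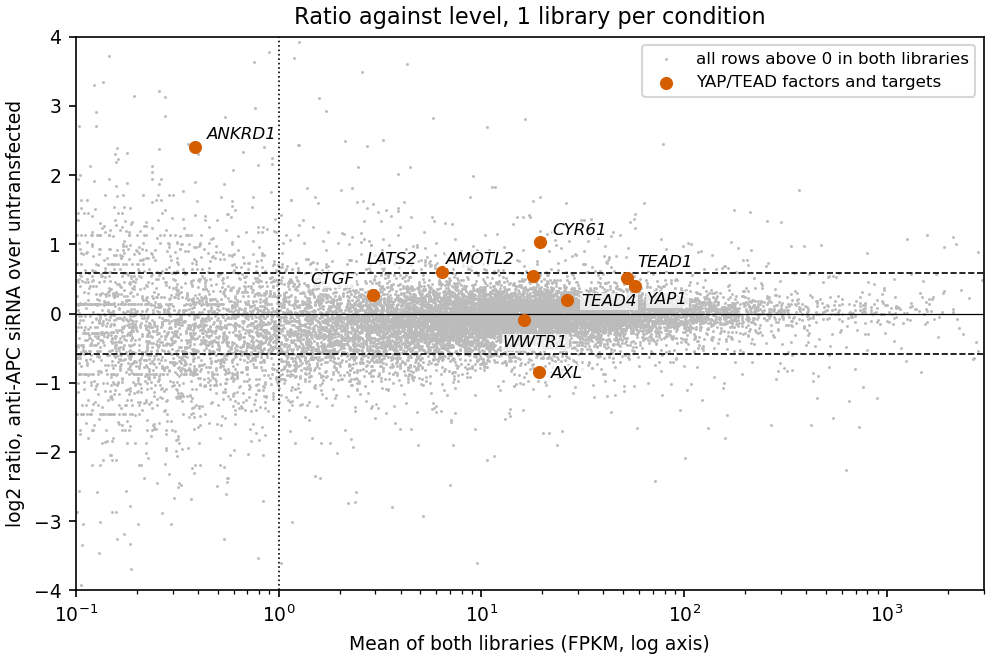
The log2 ratio of anti-*APC* over untransfected FPKM (vertical axis) against the mean of both libraries (FPKM, log axis) for all rows above 0 in both (grey, within the plotted range) and for the 10 genes (orange, named). Dashed lines mark 1.5-fold and the dotted line the minimum mean of 1 FPKM. *CYR61* and *LATS2* lie above the upper dashed line, *AXL* lies below the lower one, and *ANKRD1* lies left of the dotted line.

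*AMOTL2* and *LATS2* are targets that also restrain the pathway, AMOTL2 as a junctional protein that binds YAP and LATS2 as its kinase. *AMOTL2* (chromosome 3, 134074189 to 134094321, minus strand) had 14.7 FPKM untransfected and 21.4 FPKM with anti-*APC* siRNA, a log2 ratio of 0.54 (counting interval 0.45 to 0.63). *LATS2* (chromosome 13, 21547175 to 21635725, minus strand) had 5.08 and 7.67 FPKM, a log2 ratio of 0.60 (0.45 to 0.74). Both were higher in the anti-*APC* library. The *LATS2* ratio is at the limit of 1.5-fold and was 0.51 with 1 FPKM added. The paralogous kinase gene *LATS1* was 1.81 times as abundant as *LATS2* in untransfected cells and 1.35 times with anti-*APC* siRNA. *AMOTL1*, the paralog of *AMOTL2*, had 12.1 FPKM untransfected and 14.7 FPKM in the anti-*APC* library.

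*AXL*, a receptor tyrosine kinase for the ligand GAS6, is the only target among the 10 genes that was lower in the anti-*APC* library. It lies on chromosome 19 of GRCh37 from 41725128 to 41767671 on the plus strand. Its level was 24.6 FPKM in the untransfected library and 13.7 FPKM in the anti-*APC* library. The log2 ratio of -0.85 (counting interval -0.94 to -0.76) was lower than that of all but 2.38% of the rows compared. In order of level *AXL* took the third place among the 10 genes in untransfected cells, next to *TEAD4* at 24.5 FPKM with overlapping counting intervals (23.7 to 25.5 and 23.1 to 26.0 FPKM), and the seventh with anti-*APC* siRNA. *CYR61* went from the seventh to the fourth place, where its interval (24.9 to 27.7 FPKM) overlapped that of *TEAD4* (26.6 to 29.9 FPKM). The other neighbours in either order did not overlap, and *YAP1*, *TEAD1*, *LATS2*, *CTGF* and *ANKRD1* held the same places in both libraries, with *YAP1* on top and *ANKRD1* last. For 5 of the 10 genes (*YAP1*, *WWTR1*, *CTGF*, *AMOTL2* and *AXL*) an exon overlaps one of another annotated gene. Whether reads were assigned by strand is not given in the sources used here, so reads of antisense partners cannot be told apart. The partner of *AMOTL2*, the pseudogene *RPL39P5*, lies on the same strand, where strand would not separate the reads.

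Of 22 upstream regulators of the Hippo pathway, among them the kinases *STK3*, *STK4* and *LATS1*, the adaptors *SAV1* and *MOB1A* and the membrane-associated *NF2*, 20 were compared. In the anti-*APC* library 12 of these stood higher and 8 lower, with a median log2 ratio of 0.06, beside 41.4% higher and a median of -0.05 over all rows compared. Past 1.5-fold 1 was higher and 0 lower, where 2.56% of all rows compared were higher and 6.61% lower, so the count is near that of all rows. *PTPN14*, a phosphatase that binds YAP and is itself known as a YAP target, was the one past 1.5-fold, at 8.33 FPKM untransfected and 20.5 FPKM with anti-*APC* siRNA. Its log2 ratio of 1.30 (counting interval 1.23 to 1.36) was larger than that of *CYR61*. The other 19 lay between -0.23 (*LIMD1*) and 0.36 (*SAV1*). Among 6 other TEAD and VGLL genes, 2 were compared and neither passed 1.5-fold, a number too small to read against the same shares. These were *TEAD3* and *VGLL4*, which encodes a TEAD-binding repressor and had 8.57 FPKM untransfected and 11.2 FPKM with anti-*APC* siRNA.

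Of 22 other genes known as YAP/TAZ targets 14 were compared, 6 of them higher and 8 lower in the anti-*APC* library. Their median log2 ratio was -0.04. Both are close to those of all rows compared, of which 41.4% were higher and whose median was -0.05. Past 1.5-fold, 1 was higher and 1 lower, beside 2.56% and 6.61% of all rows compared. The higher one was the kinase gene *NUAK2*, at 1.79 FPKM untransfected and 3.04 FPKM with anti-*APC* siRNA (log2 ratio 0.76, counting interval 0.47 to 1.07). The lower one was *NT5E*, which encodes the ecto-nucleotidase CD73, at 44.9 and 29.8 FPKM (-0.59, counting interval -0.67 to -0.52). *NT5E* is among the study's candidates, which were chosen in part on the anti-*APC* library, so its difference is not independent evidence.

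**Figure D4:**
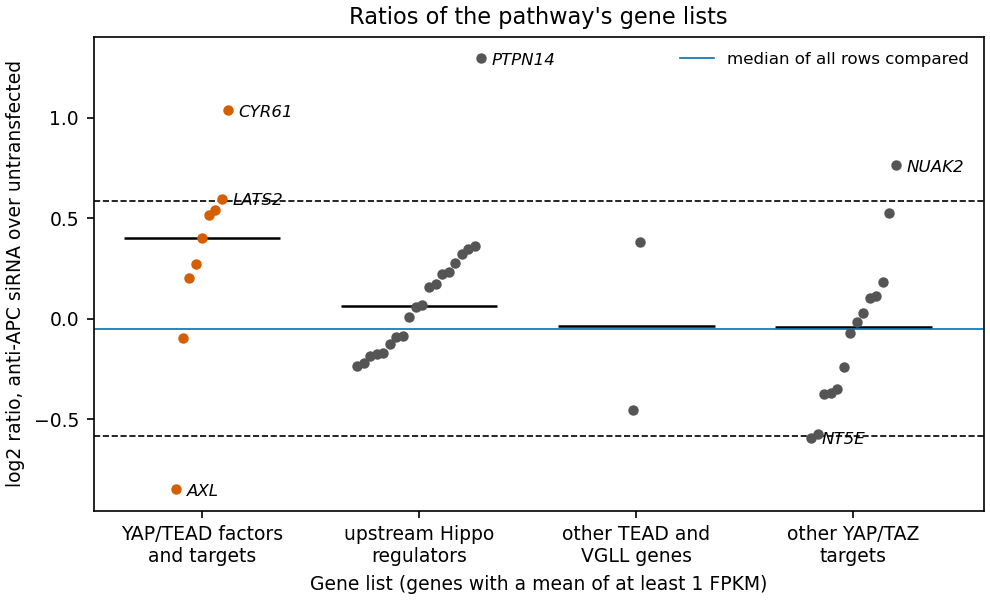
The log2 ratio of anti-*APC* over untransfected FPKM for genes with a mean of at least 1 FPKM in 4 lists, 1 point per gene, with the list's median as a short line. Dashed lines mark 1.5-fold and the blue line the median of all rows compared (-0.05). The YAP/TEAD factors and targets have a median of 0.40, the upstream regulators 0.06 and the other YAP/TAZ targets -0.04.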

How the data were processed

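RNA-seq libraries of HCT-116 cells, 1 per condition, were prepared by the authors as single-read TruSeq libraries. Per the labels, Cufflinks and Cuffdiff were used with hg19 (GRCh37). Versions, aligner and annotation are not given in the sources used here. The values the authors deposited are FPKM per gene. The table also holds the authors' log ratio, test statistic, p and q, which were not used. The members and gene lists were chosen with earlier results of these data known.

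Log2 ratios were computed without a pseudocount. Read numbers were estimated as FPKM times canonical transcript length (GENCODE 44 on GRCh37) times the depth found from low values, with at least 2000 bases of transcript and a tolerance of 0.01 on the log2 scale. These functions were tested on simulated reads drawn with the same annotated lengths, so error in those lengths was not covered. Named genes are the 10 members, list genes past 1.5-fold, *TEAD2*, *TEAD3* and *APC*. Other genes (*LATS1*, *AMOTL1*, *VGLL4*, the ends of a range and cell type markers) were named for context after values were seen. Older symbols were matched for *MOB1A*, *MOB1B* and *AJUBA*. Promoter windows came from RefSeq on GRCh38.p14, and no coordinates were moved between builds. Alternatives were 2-fold, other pseudocounts and filters, and centring. Software was scipy 1.17.1, matplotlib 3.10.9, pandas 2.3.3 and numpy 2.4.6 under Python 3.11.15.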

Additional observations from a re-analysis of the deposited data

How the results depend on the processing

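With a 2-fold limit, 1 of the 9 genes compared was higher (*CYR61*) and 0 lower, and among the other YAP/TAZ targets 0 were higher and 0 lower. *ANKRD1* was not compared, and the share of all rows past 2-fold was not computed. With 1 FPKM added, 1 of the 9 genes compared was higher and 1 was lower (*AXL*, at -0.80 on the log2 scale). At that setting 0 other targets were higher or lower, beside 1.88% of all rows compared higher and 3.71% lower. *AXL* was likewise the 1 gene lower at each other setting except the 2-fold limit. Without a minimum on the mean, 3 of the 10 genes were higher (*ANKRD1* was added), 2 upstream regulators were higher and 1 lower, and 4 other targets were higher and 3 lower, beside 6.65% and 12.8% of all rows. At a minimum of 5 FPKM, 0 other targets were higher, and the share of all rows at this setting was not computed. With the median of all rows compared subtracted, 3 of the 9 genes compared were higher (*AMOTL2* was added, at 0.59 on the log2 scale) and 0 other targets were lower, beside 2.93% and 5.4% of all rows. The same 0 was found with the median of rows of like level subtracted, a setting chosen after seeing the data. That setting moved the split of all rows past 1.5-fold from 309 higher and 797 lower to 380 and 564. Of 40 recomputed log2 ratios of single genes, 37 moved by less than the counting interval's half-width. None changed sign, but this is no check of direction. An added pseudocount cannot change a sign, and the medians subtracted were below 0, so no ratio above 0 could change sign. Depth limits *ANKRD1* and *CTGF*. No alternative with scrambled siRNA as the control was run, since no column analysed here holds it. No paired analysis was possible because each condition has 1 library.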

Other observations

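Some known YAP/TAZ targets lay below 1 FPKM and were not compared. *EDN1*, which encodes the vasoconstrictor endothelin-1, had 0.153 FPKM in the untransfected library and 0.523 FPKM in the anti-*APC* library, or about 8 and 24 reads. Its log2 ratio of 1.78 has a counting interval of 0.51 to 3.08. *PTGS2*, which encodes a cyclooxygenase, had 0.236 and 0.397 FPKM, and its counting interval of -0.0016 to 1.49 reaches 0. *IGFBP3* had 0.105 and 0.0492 FPKM, or about 7 and 3 reads, with a counting interval of -3.67 to 1.04. The protocadherin gene *FAT4*, an upstream regulator, had 0.223 and 0.354 FPKM, a log2 ratio of 0.67 (counting interval 0.28 to 1.06). *DCHS1*, the other upstream regulator below 1 FPKM, went the other way. It had 0.154 and 0.101 FPKM, a log2 ratio of -0.61 (-1.36 to 0.17). The ratios of *FAT4* and *DCHS1* lie inside the 5th and 95th percentiles of rows at 0.1 to 1 FPKM (-1.52 and 1.16). These genes were chosen after their values were seen.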
